A study of Homo sapiens with 16 samples.

Results

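The 39 genes described here act in homologous recombination, in the Fanconi anemia pathway and in the checkpoint that watches stalled replication forks. They were taken by gene symbol from a table of read counts for 30813 genes, and all 39 were found. By role they comprised 10 genes of the recombination core, 5 of break sensing and end resection, 2 of the complex that dissolves joined DNA molecules, 6 of the Fanconi core complex, 5 around the FANCD2-FANCI complex, 5 checkpoint kinases or their partners, 4 fork checkpoint mediators and 2 mismatch repair genes.

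Total RNA was sequenced from DR A375 and 451Lu BR, drug-resistant derivatives of established human melanoma lines with an activating BRAF mutation, written A375 and 451Lu below. A375 cells on drug received dabrafenib, a BRAF inhibitor, at 0.5 µM together with trametinib, a MEK inhibitor, at 0.05 µM, and the off-drug groups received DMSO in its place for 6, 24 or 48 h. 451Lu cells on drug received dabrafenib at 1 µM, and the off-drug groups received DMSO for 24, 72 or 120 h. The source name of 451Lu mentions resistance to trametinib too, whereas the treatment notes list dabrafenib alone for that line. Each of the 8 groups had 2 libraries. There was 1 resistant derivative per line and each came off its own treatment, so line and drug cannot be told apart. No on-drug group was collected at the later times, and withdrawal and longer culture therefore cannot be told apart. Nothing in the labels states that paired libraries of a group are separate cultures, so the p-values speak only of the spread among the libraries at hand.

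Homologous recombination repairs a broken DNA end by copying the sister chromatid, and is used mainly in S and G2 phase. The MRN complex and its partners resect the end, BRCA1, PALB2 and BRCA2 act on the exposed strand, and RAD54 proteins help it invade the sister. The Fanconi core complex attaches ubiquitin to FANCD2 and FANCI when a crosslink blocks a fork, and ATR with CHEK1 holds the cell cycle while the damage is dealt with. Many of these genes are transcribed periodically, under E2F factors at the G1/S boundary.

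Promoter sequences are shown first because the members fell together in 451Lu but to very different extents, as given below. RefSeq windows from 250 bases before to 50 after a start (GRCh38.p14) were at hand for 36 of the 39 members, with 52 starts. They were searched on both strands for the E2F site letters TTTCCCGC, TTTCGCGC, TTTGCCGC and TTTGGCGC. At least 1 match was present in 10 of 36 members (27.8%), against 1090 of 27305 genes with such a window (3.99%). The 10 were XRCC2, EXO1, RMI1, FANCA, FANCD2, CLSPN, TIPIN, TOPBP1, MSH6 and PMS2. A CCAAT box (CCAAT) was found in 22 of 36 members (61.1%), against 39.7% of all genes, and the letters of the CHR element (TTTGAA or TTCGAA) in 4 of 36 (11.1%), against 19.5%. Below are 200-base stretches of 6 members, from 170 bases before to 30 after the start, 5′ to 3′ on the gene's strand, with E2F letters in capitals. FANCD2, EXO1, CLSPN and XRCC2 stand for members with a match and a large fall in 451Lu. RAD50 and ATR, without a match, stand for those that did not fall there. These 6 were picked by match and change together, so they cannot show whether match and fall go together.
FANCD2, chr3:10026267-10026466, plus strand: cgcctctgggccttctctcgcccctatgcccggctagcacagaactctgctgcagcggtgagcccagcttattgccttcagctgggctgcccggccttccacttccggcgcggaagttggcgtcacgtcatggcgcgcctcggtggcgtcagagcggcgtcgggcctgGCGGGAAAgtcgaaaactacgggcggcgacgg
EXO1, chr1:241848034-241848233, plus strand: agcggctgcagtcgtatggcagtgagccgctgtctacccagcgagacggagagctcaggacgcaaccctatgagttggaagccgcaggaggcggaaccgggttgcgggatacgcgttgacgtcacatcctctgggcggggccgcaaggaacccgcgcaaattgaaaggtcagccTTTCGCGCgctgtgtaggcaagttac
CLSPN, chr1:35769949-35770148, minus strand: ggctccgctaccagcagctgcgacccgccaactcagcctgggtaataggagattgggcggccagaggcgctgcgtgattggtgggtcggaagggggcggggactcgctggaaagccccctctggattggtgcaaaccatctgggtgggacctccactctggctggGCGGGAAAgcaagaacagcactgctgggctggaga
XRCC2, chr7:152676112-152676311, minus strand: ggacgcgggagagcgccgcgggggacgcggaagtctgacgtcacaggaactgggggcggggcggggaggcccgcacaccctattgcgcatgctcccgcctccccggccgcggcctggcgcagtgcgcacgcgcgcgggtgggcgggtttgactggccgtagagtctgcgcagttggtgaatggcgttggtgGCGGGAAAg
RAD50, chr5:132556807-132557006, plus strand: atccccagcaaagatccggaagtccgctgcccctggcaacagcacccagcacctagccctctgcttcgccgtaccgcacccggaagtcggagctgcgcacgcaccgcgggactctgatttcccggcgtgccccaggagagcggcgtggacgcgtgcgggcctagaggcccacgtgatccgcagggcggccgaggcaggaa
ATR, chr3:142578704-142578903, minus strand: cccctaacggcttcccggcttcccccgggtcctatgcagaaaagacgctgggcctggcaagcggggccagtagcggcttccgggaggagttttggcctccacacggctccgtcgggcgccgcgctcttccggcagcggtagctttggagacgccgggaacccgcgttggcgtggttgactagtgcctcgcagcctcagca
In these 4 windows the first matched base lay at -2, 5, -5 and 22 in the order printed, where the first transcribed base is 1, the base before it is -1 and there is no base 0. In 451Lu at 120 h off drug, the median log2 fold change was -2.39 over the 10 members with E2F letters (range -5.53 to -0.56) and -1.75 over the 26 without (range -5.03 to 0.53). The ranges overlapped, and RAD51AP1 and BRIP1, at -5.03 and -4.64, had no E2F match. PMS2, TOPBP1 and MSH6, at -0.56, -1.10 and -1.24, had one. In A375 at 6 h the corresponding medians were -0.29 with and -0.58 without.

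Library totals ran from 10863255 to 16691725 counts in A375 and from 9714190 to 16447548 in 451Lu. No member was at 0 in any library, and all 39 passed the filter on low counts in every fit. The lowest count was 4, for FANCB in a 451Lu library at 120 h. Mitochondrial transcripts took 4.81% to 6.11% of counts on drug and 2.60% to 5.08% off drug. Of 8 melanocyte markers, MITF, SOX10, PMEL, TYR and S100B were at 18.8 CPM or more in every library of both lines. MLANA and DCT went as low as 3.6 and 0.172 CPM in 451Lu. TYRP1 reached at most 10.6 CPM in A375 and 1.74 CPM in 451Lu, with 4 libraries at 0. Of 12 markers of other cell types 6 were listed, none above 2.82 CPM. Levels are CPM, counts scaled to library size with TMM over all 16 libraries. Fewer cells of a type and less RNA per cell cannot be told apart in such bulk samples. Changes are log2 fold changes ± SE unless given as a fold, with p-values from edgeR's quasi-likelihood test adjusted over all genes tested, and a gene is said to rise or fall where adjusted p was under 0.05.

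**Figure D1:**
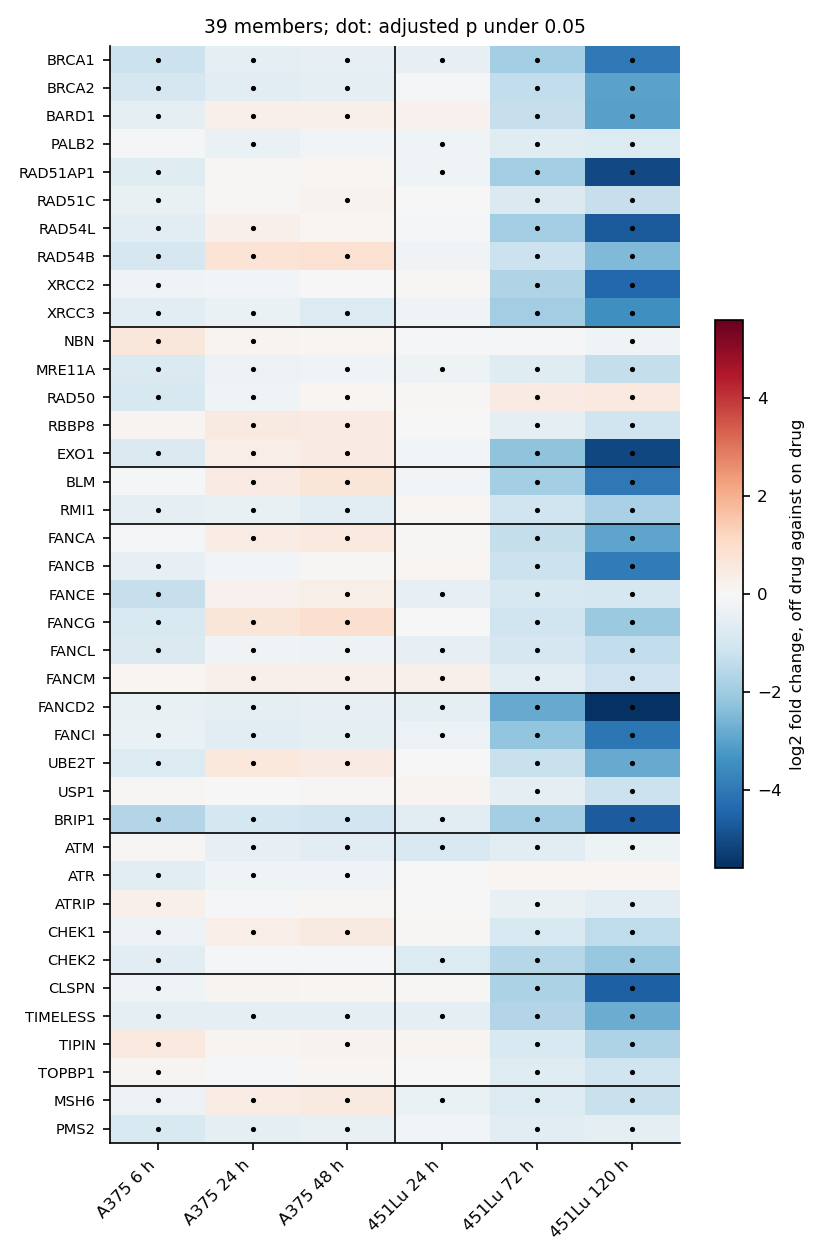
Log2 fold change of the 39 members (rows, grouped by role) off drug against on drug in 6 comparisons (columns), with a dot where adjusted p was under 0.05. The 451Lu columns deepen in blue from 24 to 120 h, where 37 members fell, while the A375 columns turn from 28 members lower at 6 h to a mixture at 24 and 48 h.

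The first question was how the members stood in A375 after release from dabrafenib and trametinib. At 6 h, 28 of 39 members fell and 4 rose, where 38.1% of the 14449 genes tested fell and 35.1% rose. The members' median log2 change was -0.50, against -0.06 over all genes. BRIP1, FANCE and BRCA1 fell by at least 2-fold, and NBN, TIPIN, ATRIP and TOPBP1 were the 4 that rose. At 24 h, 15 members were lower and 13 higher than on drug, against 36.3% and 36.2% of all genes, with a median of -0.05 (all genes -0.02). At 48 h, 13 were lower and 15 higher, against 36.0% and 36.6% of all genes, with a median of 0.10. The shares called at 24 and 48 h were near those of all genes, and which direction held more members turned with the setting: RLE size factors gave 14 lower and 15 higher at 24 h, and leaving out on-drug replicate 2 gave 11 lower and 10 higher at 48 h.

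Set directly against 6 h, the 24 h libraries had 25 members higher and 7 lower, against 35.5% and 34.2% of all genes, and a median of 0.38 (all genes 0.02). This comparison uses the same 6 h libraries as the comparison of 6 h with on drug. RAD54B, FANCG, FANCE, UBE2T and EXO1 rose by at least 2-fold between these times. The 7 that fell were NBN, ATM, TIPIN, ATRIP, PALB2, FANCI and TOPBP1. Between 24 and 48 h, 4 members rose and 1 fell, against 14.2% and 15.7% of all genes. RAD50, PALB2, BLM and TOPBP1 were the 4, at 0.35, 0.23, 0.22 and 0.15, and XRCC3 fell, at -0.41. Leaving out 1 library left between 1 and 6 of the 39 called higher from 24 to 48 h, and DESeq2 called 1, and RAD50 was called in each of these fits.

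In 451Lu, released from dabrafenib, the members went down with time. At 24 h, 13 members fell and 1 rose, where 24.9% of 13851 genes fell and 29.2% rose. Fewer genes in all were called whichever on-drug or 24 h library was left out. Members called lower were fewer without on-drug replicate 1 or without 24 h replicate 1. DESeq2, which called 5590 genes in all against 7491, gave 10 members lower and 0 higher. The median was -0.10, against 0.03 over all genes. At 72 h, 36 fell and 1 rose, against 33.4% and 34.2% of all genes, and the median was -1.13. At 120 h, 37 fell and 1 rose, against 36.6% and 37.3%, and the median was -2.07 where that of all genes was 0.001. By then 31 members were lower by at least 2-fold, 20 had a log2 change under -2, 13 under -3, 8 under -4 and 3 under -5. RAD50 was the member that rose at 72 and 120 h, and ATR was called at none of the 3 times.

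From 24 to 72 h, 34 members fell and 2 rose (ATM and RAD50), against 25.5% and 25.9% of all genes, with a median of -1.02. From 72 to 120 h, 30 fell and 1 rose (ATM), against 16.1% and 16.6%, with a median of -0.87. These comparisons share their 72 h libraries. The rise of ATM from 72 to 120 h was not called without 72 h replicate 2 or without 120 h replicate 2, at 0.23 and 0.21 against 0.29.

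**Figure D2:**
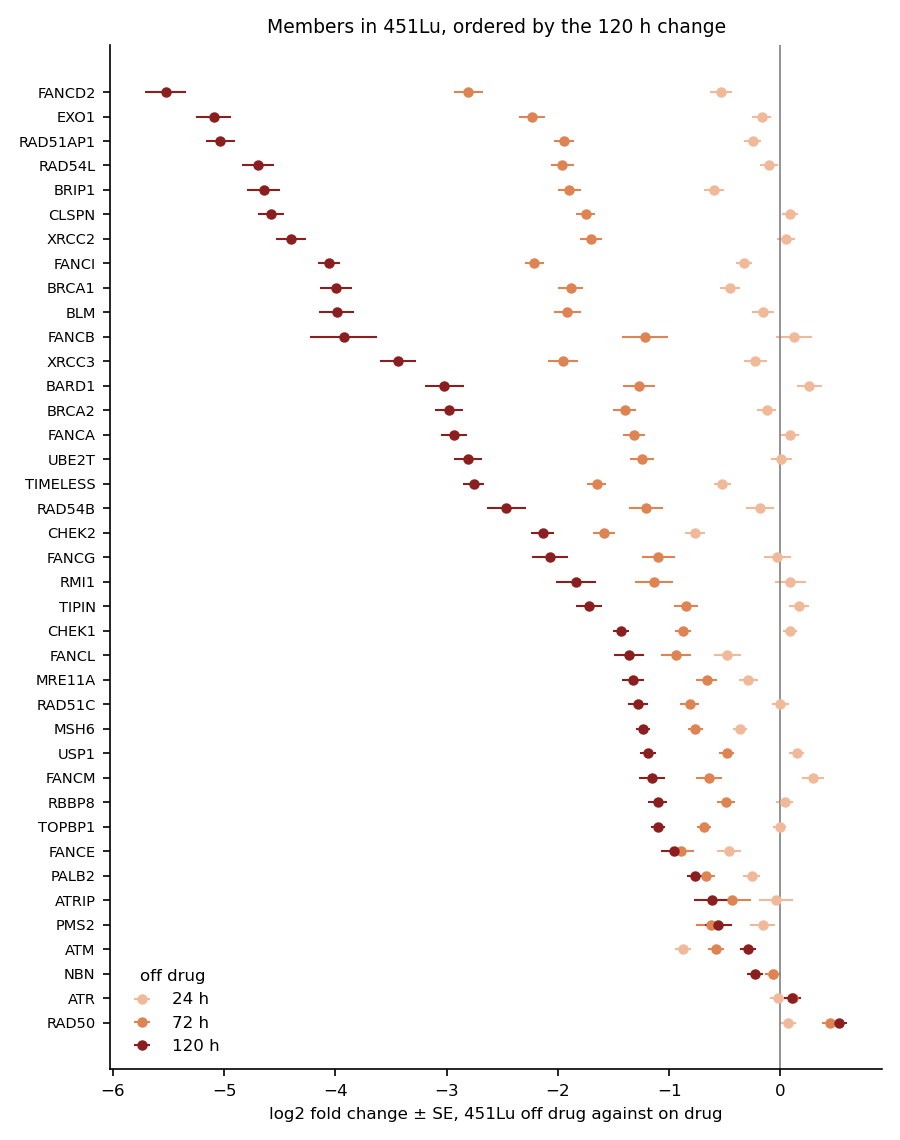
Log2 fold change ± SE of each member in 451Lu at 24, 72 and 120 h off drug against on drug, ordered by the 120 h value. FANCD2 was lowest at -5.53 and RAD50 highest at 0.53, and most 24 h points lie close to 0.

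The recombination core fell at 6 h in A375 and at 72 and 120 h in 451Lu. Of its 10 members 9 fell at 6 h in A375 with none higher, where 38.1% of all genes fell and 35.1% rose. At 24 h 4 were lower and 3 higher than on drug, near the shares of all genes, 36.3% and 36.2%. All 10 fell in 451Lu at 72 and 120 h, against 33.4% and 36.6% of all genes, with medians of -1.55 and -3.23. BRCA1 (chromosome 17, 43044295 to 43125483, minus strand, GRCh38) encodes a ubiquitin ligase subunit that promotes resection and BRCA2 loading. In A375 its levels were 103 and 99.5 CPM on drug, 44.3 and 47.4 at 6 h, 69.6 and 76.6 at 24 h, and 77.3 and 72.1 at 48 h. In 451Lu they were 60.3 and 53.5 CPM on drug, 39.9 and 41.4 at 24 h, 13.04 and 17.5 at 72 h, and 3.69 and 3.48 at 120 h. All 6 off-drug libraries of A375 lay below both on-drug ones, with 6 h lowest and 24 and 48 h overlapping, and the 4 groups of 451Lu followed each other downward without overlap. The change in A375 at 6 h was -1.18 ± 0.06 (adjusted p = 4.82e-18), and from 6 to 24 h BRCA1 rose again by 0.67 ± 0.07. In 451Lu it was 15.96-fold lower at 120 h, -3.997 ± 0.14 on the log2 scale (adjusted p = 2.58e-13).

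BRCA2 (chromosome 13, 32315474 to 32400266, plus strand) acts with PALB2 on the single-stranded DNA that resection leaves. Levels in A375 stood at 52.4 and 52.1 CPM on drug, 27.2 and 28.6 at 6 h, 31.8 and 39.4 at 24 h, and 41.3 and 34.5 at 48 h. Those in 451Lu stood at 41.5 and 39.7 CPM on drug, 33.7 and 39.5 at 24 h, 15.6 and 15.1 at 72 h, and 4.97 and 5.41 at 120 h. Off-drug libraries of A375 were below the on-drug pair at every time. In 451Lu both 24 h libraries lay under the on-drug pair, replicate 2 only just, before both later groups dropped away. BRCA2 fell by 1.92-fold at 6 h in A375 (-0.94 ± 0.09, adjusted p = 7.50e-12). In 451Lu the 24 h change of -0.12 ± 0.09 did not pass (adjusted p = 0.250), and at 120 h the change was -2.98 ± 0.12. BARD1, the partner of BRCA1, had changes of -0.56 at 6 h in A375 and -3.02 at 120 h in 451Lu. PALB2, which bridges BRCA1 and BRCA2, changed least of the core in 451Lu, at -0.67 and -0.76 at 72 and 120 h.

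RAD51AP1 (chromosome 12, 4538798 to 4560048, plus strand) stimulates strand invasion. Its A375 levels were 27.7 and 29.8 CPM on drug, 17.7 and 19.2 at 6 h, 30.96 and 31.1 at 24 h, and 33.4 and 30.3 at 48 h. Its 451Lu levels were 63.7 and 60.8 CPM on drug, 49.7 and 52.8 at 24 h, 15.8 and 16.3 at 72 h, and 1.72 and 2.12 at 120 h. In A375 only the 6 h pair lay below the on-drug pair, and in 451Lu the groups stepped down without overlap. The 120 h change was -5.03 ± 0.13, 32.8-fold lower (adjusted p = 5.24e-15), against -0.67 ± 0.09 at 6 h in A375. The 24 h fall in 451Lu (-0.25) was not called without on-drug replicate 1 (-0.22) or 24 h replicate 1 (-0.21). A pseudogene named for RAD51AP1 exists, and how reads were divided between them is not stated.

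RAD54L (chromosome 1, 46247688 to 46278473, plus strand) encodes RAD54, a motor protein of strand exchange. A375 libraries held 33.7 and 31.7 CPM on drug, 23.4 and 21.3 at 6 h, 41.2 and 41.1 at 24 h, and 33.8 and 38.3 at 48 h. Those of 451Lu held 47.00 and 51.1 CPM on drug, 45.1 and 44.7 at 24 h, 12.03 and 13.1 at 72 h, and 2.14 and 1.64 at 120 h. In A375 the 6 h pair was lowest and the 24 h pair highest. In 451Lu the on-drug and 24 h pairs were close and the 120 h pair far below. RAD54L fell by 0.58 ± 0.09 at 6 h in A375, rose to 0.30 ± 0.07 above on drug at 24 h, and fell in 451Lu by 25.9-fold at 120 h (-4.70 ± 0.14, adjusted p = 2.91e-14). It shares 806 exon bases with LRRC41 on the other strand.

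RAD54B, a paralog of RAD54L, moved most from low to high in A375. Its levels there were 7.85 and 8.85 CPM on drug, 4.95 and 3.85 at 6 h, 14.5 and 14.9 at 24 h, and 15.4 and 15.4 at 48 h. In 451Lu they were 14.3 and 12.7 CPM on drug, 11.8 and 11.4 at 24 h, 5.28 and 6.29 at 72 h, and 2.23 and 2.70 at 120 h. The A375 pairs at 24 and 48 h lay above the on-drug pair and the 6 h pair below it, whereas in 451Lu each later pair was lower. In A375 it was 1.93-fold lower at 6 h (-0.95 ± 0.16) and 1.72-fold higher at 24 h (0.78 ± 0.12, adjusted p = 3.76e-07). At 120 h in 451Lu its change was -2.46 ± 0.18.

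XRCC3 (chromosome 14, 103697609 to 103715504, minus strand) acts in strand exchange. In A375 its levels were 20.1 and 22.6 CPM on drug, 14.4 and 14.9 at 6 h, 17.1 and 16.9 at 24 h, and 11.5 and 13.98 at 48 h, with every off-drug library below both on-drug ones. In 451Lu they were 26.8 and 25.1 CPM on drug, 22.3 and 21.1 at 24 h, 5.73 and 7.49 at 72 h, and 2.66 and 2.12 at 120 h, falling from group to group. The change was -0.77 ± 0.11 at 48 h in A375 and -3.44 ± 0.16 at 120 h in 451Lu (adjusted p = 9.53e-08 and 7.04e-12). XRCC3 shares 5756 exon bases with KLC1 on the other strand, and since the strand setting of the counting is not given, reads of the pair cannot be told apart. Of other core genes, XRCC2 fell by 21.1-fold at 120 h in 451Lu and RAD51C by 2.43-fold. At 6 h in A375 XRCC2 stood at -0.23 (adjusted p = 0.0244), a call lost without either on-drug library (-0.21 and -0.24) and without 6 h replicate 2 (-0.18).

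**Figure D3:**
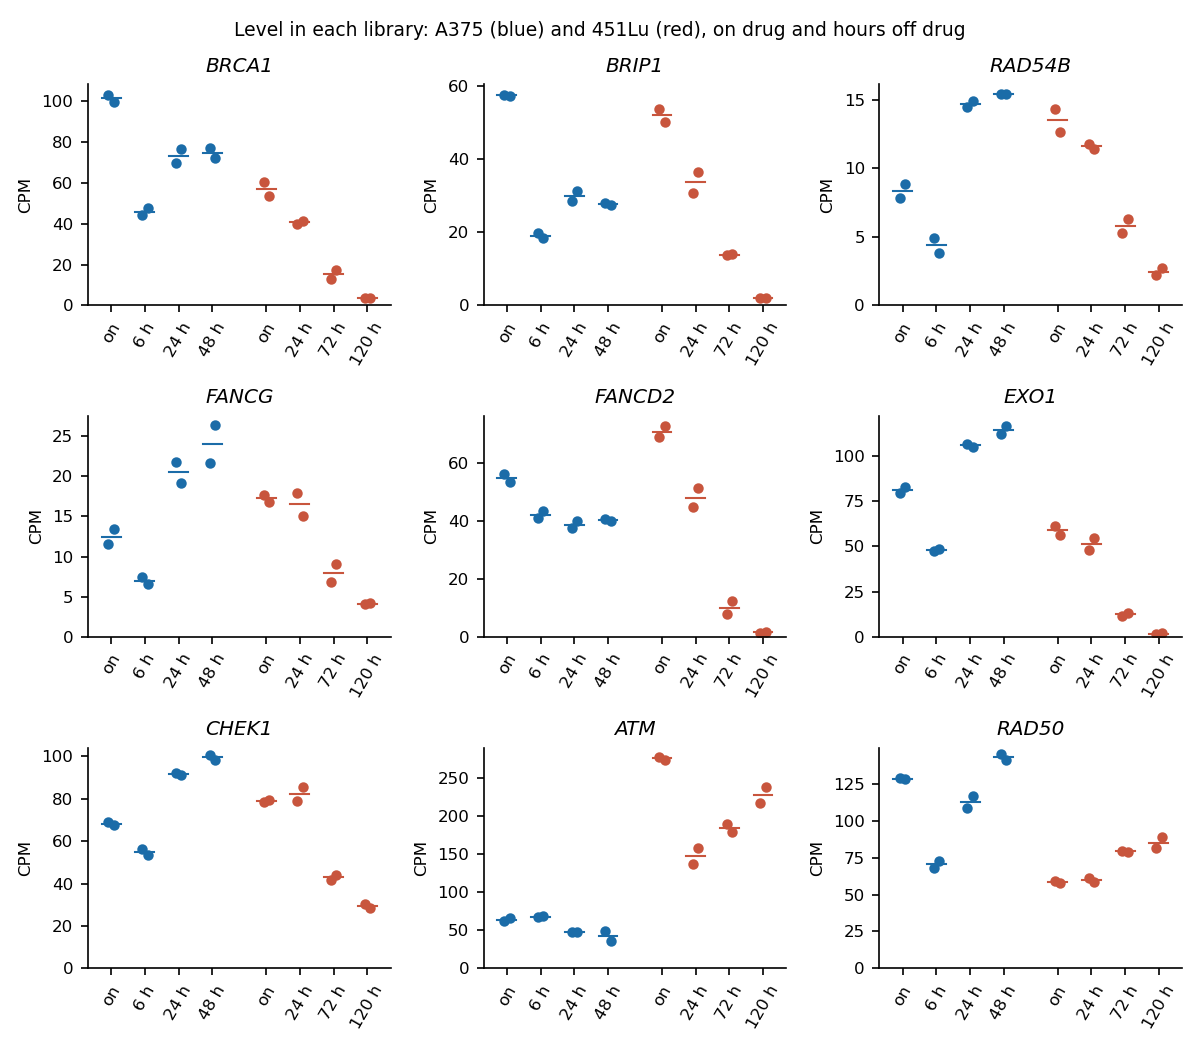
CPM of 9 members in each of the 16 libraries (points), with a bar at the group mean, for A375 (blue) and 451Lu (red) on drug and at each time off drug. BRCA1, BRIP1, FANCD2 and EXO1 end below 4 CPM at 120 h in 451Lu, while RAD50 ends above its on-drug level.

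The genes of break sensing and end resection went different ways. NBN, MRE11A and RAD50 encode the MRN complex, which binds the broken end and recruits ATM. In A375 at 6 h NBN rose, to 174 and 183 CPM from 111 and 114 on drug (0.63 ± 0.05), while MRE11A fell by 0.82 ± 0.07 and RAD50 fell by 0.90 ± 0.06 on the log2 scale. RAD50 (chromosome 5, 132556019 to 132646344, plus strand) was given in full after its values were seen, as the member that rose in 451Lu. Its A375 levels were 129 and 129 CPM on drug, 68.3 and 73.03 at 6 h, 108 and 117 at 24 h, and 145 and 141 at 48 h. Its 451Lu levels were 59.1 and 57.7 CPM on drug, 61.2 and 58.5 at 24 h, 79.7 and 78.98 at 72 h, and 81.3 and 89.05 at 120 h. In A375 both 6 h libraries lay far below the rest, and in 451Lu both the 72 and 120 h pairs lay above the on-drug and 24 h pairs. RAD50 rose by 0.53 ± 0.07 at 120 h in 451Lu (adjusted p = 2.73e-06), when MRE11A was at -1.32 ± 0.10 and NBN at -0.23 ± 0.07. The NBN call at 120 h was lost without on-drug replicate 1, at -0.12.

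EXO1 (chromosome 1, 241847967 to 241895148, plus strand) encodes the exonuclease of long-range resection. A375 levels were 79.2 and 83.00 CPM on drug, 47.2 and 48.5 at 6 h, 107 and 105 at 24 h, and 112 and 116 at 48 h. 451Lu levels were 61.4 and 56.3 CPM on drug, 47.8 and 54.8 at 24 h, 11.7 and 13.2 at 72 h, and 1.37 and 2.12 at 120 h. The A375 pairs dropped at 6 h and rose past the on-drug pair at 24 and 48 h, and the 451Lu pairs stepped down without overlap. EXO1 was 1.74-fold lower at 6 h and 1.38-fold higher at 48 h in A375 (-0.80 ± 0.06 and 0.46 ± 0.05, adjusted p = 6.22e-14 and 1.83e-09). At 120 h in 451Lu it was 34.2-fold lower (-5.10 ± 0.16). RBBP8, which encodes CtIP, the starter of resection, rose by 0.52 ± 0.07 at 24 h in A375 and changed by -1.103 ± 0.09 at 120 h in 451Lu. A pseudogene is named for RBBP8 and another for MRE11A.

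BLM and RMI1 act in the complex that takes joined DNA molecules apart without crossing over. BLM (chromosome 15, 90717327 to 90816165, plus strand) is its helicase, with 36.5 and 35.5 CPM on drug, 34.3 and 34.8 at 6 h, 49.3 and 52.3 at 24 h, and 61.9 and 55.99 at 48 h in A375. In 451Lu it had 58.6 and 54.7 CPM on drug, 49.2 and 50.3 at 24 h, 12.3 and 17.5 at 72 h, and 2.92 and 4.35 at 120 h. In A375 the 6 h pair lay slightly under the on-drug pair (-0.10 ± 0.07, adjusted p = 0.236, not past the threshold) and the later pairs well above it. BLM rose by 0.68 ± 0.07 at 48 h in A375 (adjusted p = 8.54e-11) and was 15.9-fold lower in 451Lu at 120 h (-3.99 ± 0.16). RMI1, the scaffold subunit, was lower than on drug at all 3 times in A375, at -0.50, -0.43 and -0.62, and at -1.84 at 120 h in 451Lu.

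Of the 6 Fanconi core complex genes, 4 fell at 6 h in A375 and none rose, where 38.1% of all genes fell and 35.1% rose. At 48 h 4 were higher and 1 lower, against 36.6% and 36.0% of all genes. All 6 fell in 451Lu at 72 and 120 h (medians -1.02 and -1.72), against 33.4% and 36.6% of all genes. FANCA (chromosome 16, 89737549 to 89816657, minus strand) is a scaffold of the complex. Its A375 levels were 23.7 and 26.7 CPM on drug, 25.2 and 22.7 at 6 h, 34.2 and 33.97 at 24 h, and 38.7 and 35.9 at 48 h. Its levels in 451Lu were 44.00 and 43.6 CPM on drug, 46.99 and 43.9 at 24 h, 15.8 and 19.1 at 72 h, and 5.40 and 6.18 at 120 h. The 6 h and on-drug pairs overlapped in A375, as did the 24 h and on-drug pairs in 451Lu. FANCA rose by 0.41 ± 0.08 at 24 h in A375 (adjusted p = 2.99e-05) and was 7.66-fold lower at 120 h in 451Lu (-2.94 ± 0.12). It shares 2302 exon bases with ZNF276 on the other strand.

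FANCE (chromosome 6, 35452361 to 35467103, plus strand) links the core complex to FANCD2. In A375 its levels were 12.2 and 11.2 CPM on drug, 4.18 and 5.55 at 6 h, 16.1 and 11.4 at 24 h, and 15.2 and 14.7 at 48 h. In 451Lu they were 20.98 and 19.5 CPM on drug, 14.4 and 14.4 at 24 h, 10.004 and 11.6 at 72 h, and 10.6 and 10.3 at 120 h. The 6 h pair in A375 lay well below the on-drug pair, the 24 h pair overlapped the on-drug pair, and in 451Lu the 72 and 120 h pairs overlapped each other. FANCE fell by 1.30 ± 0.17 at 6 h in A375 (adjusted p = 1.99e-08). Its 24 h change there was 0.23 ± 0.12 (adjusted p = 0.104), and 0.43 with adjusted p = 0.00349 without 24 h replicate 2. In 451Lu it changed by -0.90 ± 0.12 at 72 h and -0.96 ± 0.11 at 120 h.

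FANCG (chromosome 9, 35073835 to 35080016, minus strand) binds FANCA within the complex. A375 levels stood at 11.6 and 13.4 CPM on drug, 7.50 and 6.53 at 6 h, 21.8 and 19.2 at 24 h, and 21.7 and 26.4 at 48 h. The 451Lu levels stood at 17.6 and 16.8 CPM on drug, 17.9 and 15.1 at 24 h, 6.86 and 9.09 at 72 h, and 4.03 and 4.25 at 120 h. In A375 the 6 h pair was below and the 24 and 48 h pairs above the on-drug pair. In 451Lu the 24 h pair overlapped the on-drug pair. FANCG was 1.82-fold lower at 6 h and 1.89-fold higher at 48 h in A375 (-0.86 ± 0.14 and 0.92 ± 0.11), and 4.20-fold lower at 120 h in 451Lu (-2.07 ± 0.16, adjusted p = 5.78e-09). FANCB, another core subunit, was 15.2-fold lower there, a value that rests on 4 and 5 counts at 120 h. FANCL, the ubiquitin ligase subunit, fell by 0.82 ± 0.08 at 6 h in A375 and stood at -1.36 ± 0.14 at 120 h in 451Lu. FANCM, the translocase that brings the complex to forks, was the member that rose at 24 h in 451Lu (0.29 ± 0.10, adjusted p = 0.0220). That call was lost without on-drug replicate 2 (0.22), without 24 h replicate 2 (0.23) and with DESeq2.

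The genes around the FANCD2-FANCI complex held the deepest fall. In 451Lu all 5 fell at 72 and 120 h, with medians of -1.90 and -4.06, against 33.4% and 36.6% of all genes that fell. FANCD2 (chromosome 3, 10026414 to 10101930, plus strand) encodes the subunit that receives ubiquitin and clamps onto DNA. In A375 its levels were 56.3 and 53.5 CPM on drug, 41.2 and 43.4 at 6 h, 37.5 and 40.03 at 24 h, and 40.8 and 40.03 at 48 h, every off-drug library below the on-drug pair. In 451Lu they were 69.1 and 72.8 CPM on drug, 44.98 and 51.3 at 24 h, 7.76 and 12.3 at 72 h, and 1.46 and 1.64 at 120 h, with no overlap between groups. FANCD2 fell by 6.99-fold at 72 h and 46.1-fold at 120 h in 451Lu (-2.80 ± 0.13 and -5.53 ± 0.18, adjusted p = 1.31e-11 and 8.63e-14). In A375 the changes were small and alike at 6, 24 and 48 h, at -0.42, -0.54 and -0.48. The 72 h value in 451Lu rests on libraries of 69 and 123 counts. A pseudogene is named for FANCD2 too.

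FANCI (chromosome 15, 89243949 to 89317261, plus strand), its partner, was the most abundant of the members in CPM in A375 on drug, with 265 and 253 CPM on drug, 198 and 214 at 6 h, 176 and 173 at 24 h, and 194 and 185 at 48 h. In 451Lu it had 235 and 222 CPM on drug, 168 and 188 at 24 h, 44.1 and 53.8 at 72 h, and 13.7 and 13.9 at 120 h. The off-drug libraries lay below the on-drug pair in both lines. FANCI fell by 0.60 ± 0.05 at 24 h in A375 and fell by 4.06 ± 0.10 at 120 h in 451Lu (adjusted p = 1.97e-13 and 2.54e-15).

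BRIP1 (chromosome 17, 61681266 to 61863521, minus strand) encodes a helicase that binds BRCA1, also known as FANCJ. A375 levels were 57.7 and 57.2 CPM on drug, 19.9 and 18.3 at 6 h, 28.7 and 31.4 at 24 h, and 28.01 and 27.3 at 48 h. Levels in 451Lu were 53.8 and 50.2 CPM on drug, 30.8 and 36.6 at 24 h, 13.8 and 13.98 at 72 h, and 2.14 and 2.03 at 120 h. All off-drug libraries lay below the on-drug pair in both lines. BRIP1 had the largest fall of the 39 in A375 at 6, 24 and 48 h, at -1.62 ± 0.08, -0.98 ± 0.07 and -1.09 ± 0.07 (adjusted p = 2.33e-19, 8.55e-15 and 2.40e-15). In 451Lu it was 1.52-fold lower at 24 h and 25.00-fold lower at 120 h (-0.60 ± 0.09 and -4.64 ± 0.15). Of the enzymes, UBE2T, which supplies the ubiquitin, fell by 0.76 ± 0.07 at 6 h and then rose to 0.57 ± 0.06 at 24 h in A375, and stood at -2.81 ± 0.13 at 120 h in 451Lu. USP1, which removes it, had changes of 0.06, 0.01 and 0.07 in A375, none past the threshold, and fell by 1.19 ± 0.07 at 120 h in 451Lu.

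Among the checkpoint kinases, ATM and ATR went apart from most members in 451Lu. ATM (chromosome 11, 108222484 to 108369102, plus strand) answers double-strand breaks. Its levels in A375 were 62.1 and 65.9 CPM on drug, 66.9 and 68.8 at 6 h, 48.5 and 47.6 at 24 h, and 48.9 and 36.4 at 48 h. Those in 451Lu were 278 and 275 CPM on drug, 137 and 159 at 24 h, 189.5 and 179 at 72 h, and 218 and 239 at 120 h. In A375 the 24 and 48 h libraries lay below the on-drug pair, and in 451Lu the 24 h pair was lowest and the later pairs stepped back up without reaching the on-drug pair. ATM had the largest fall of the 39 at 24 h in 451Lu, -0.87 ± 0.07 (adjusted p = 2.58e-08), and was at -0.58 ± 0.07 and -0.29 ± 0.07 at 72 and 120 h. The 48 h libraries of A375 differed from each other, with a change of -0.62 ± 0.08.

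ATR (chromosome 3, 142449235 to 142578826, minus strand) answers exposed single-stranded DNA at forks. It had 53.5 and 52.6 CPM on drug, 36.1 and 34.2 at 6 h, 42.2 and 49.9 at 24 h, and 50.03 and 45.9 at 48 h in A375. In 451Lu it had 36.3 and 37.3 CPM on drug, 34.9 and 36.4 at 24 h, 39.7 and 39.6 at 72 h, and 39.7 and 40.5 at 120 h. In A375 the 6 h pair was lowest, and in 451Lu the 72 and 120 h pairs lay slightly above the on-drug pair. ATR fell by 0.63 ± 0.08 at 6 h in A375 (adjusted p = 4.54e-09). Its smaller changes at 24 h (-0.25) and 48 h (-0.18) were not called without 24 h replicate 1 (-0.11) and without 48 h replicate 2 (-0.12). In 451Lu at 120 h the change was 0.11 ± 0.08 (adjusted p = 0.216). ATR shares 2048 exon bases with a gene on the other strand. ATRIP, its partner, had between 5.70 and 13.9 CPM in every library, and its rise at 6 h in A375 (0.28 ± 0.13, adjusted p = 0.0469) was lost without on-drug replicate 2 (0.19) or 6 h replicate 2 (0.13).

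CHEK1 (chromosome 11, 125625136 to 125676255, plus strand) encodes the kinase that ATR activates. A375 libraries showed 68.9 and 67.6 CPM on drug, 56.3 and 53.6 at 6 h, 92.2 and 91.4 at 24 h, and 101 and 98.4 at 48 h. The libraries of 451Lu showed 78.5 and 79.5 CPM on drug, 78.8 and 85.5 at 24 h, 41.7 and 44.2 at 72 h, and 30.5 and 28.5 at 120 h. In A375 the 6 h pair was lowest and the 24 and 48 h pairs were above the on-drug pair. In 451Lu the 24 h pair overlapped the on-drug pair. CHEK1 fell by 0.35 ± 0.06 at 6 h and rose by 0.51 ± 0.05 at 48 h in A375 (adjusted p = 3.61e-06 and 3.58e-10), and fell by 1.43 ± 0.08 at 120 h in 451Lu (adjusted p = 3.61e-11).

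CHEK2 (chromosome 22, 28687743 to 28742422, minus strand) encodes the kinase that ATM activates. Levels of 30.8 and 32.8 CPM on drug, 21.8 and 21.03 at 6 h, 29.1 and 32.5 at 24 h, and 30.9 and 29.5 at 48 h were measured in A375. Levels of 55.3 and 57.2 CPM on drug, 31.1 and 33.7 at 24 h, 16.3 and 20.9 at 72 h, and 12.8 and 13.04 at 120 h were measured in 451Lu. The A375 pairs at 24 and 48 h overlapped the on-drug pair, whereas in 451Lu the 24 h pair was already well below it. CHEK2 fell by 0.60 ± 0.09 at 6 h in A375, and fell by 0.77 ± 0.09 at 24 h, and fell by 2.14 ± 0.11 at 120 h in 451Lu (adjusted p = 1.87e-06 and 1.51e-11). Several pseudogenes carry its name.

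The fork checkpoint mediators also split in A375. CLSPN (chromosome 1, 35720218 to 35769967, minus strand) encodes claspin, the adaptor between ATR and CHEK1. Its levels in A375 were 45.3 and 44.4 CPM on drug, 35.5 and 42.96 at 6 h, 49.2 and 52.4 at 24 h, and 49.7 and 48.6 at 48 h. In 451Lu levels were 103 and 104 CPM on drug, 106 and 109 at 24 h, 26.9 and 34.1 at 72 h, and 4.54 and 4.15 at 120 h. The 6 h pair in A375 lay below the others, and in 451Lu the 24 h pair lay just above the on-drug pair before the fall. CLSPN changed by -0.23 ± 0.07 at 6 h in A375 (adjusted p = 0.00587), and by -0.10 without 6 h replicate 1, where the call was lost. In 451Lu it was 23.9-fold lower at 120 h (-4.58 ± 0.12, adjusted p = 4.95e-15). TIMELESS and TIPIN form a complex that steadies the fork, and they moved in opposite directions at 6 h in A375, at -0.54 ± 0.06 and 0.55 ± 0.08. At 120 h in 451Lu they were at -2.76 ± 0.10 and -1.72 ± 0.11. TOPBP1, the activator of ATR, rose at 6 h in A375 by 0.14 ± 0.05 (adjusted p = 0.0173), a call lost without 6 h replicate 2 (0.12) or without either on-drug library (0.14 and 0.15), and fell by 1.099 ± 0.06 at 120 h in 451Lu.

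MSH6 and PMS2 belong to mismatch repair. MSH6 (chromosome 2, 47695530 to 47810101, plus strand) encodes a subunit that recognises the mismatch. In A375 it was measured at 108 and 109.8 CPM on drug, 86.7 and 89.1 at 6 h, 152 and 143 at 24 h, and 159 and 157 at 48 h. In 451Lu it was measured at 144 and 145 CPM on drug, 108 and 112 at 24 h, 82.4 and 87.3 at 72 h, and 59.7 and 64.4 at 120 h. A375 went below the on-drug pair at 6 h and above it at 24 and 48 h, and 451Lu went down group by group. MSH6 fell by 0.34 ± 0.05 at 6 h and rose by 0.51 ± 0.05 at 48 h in A375, and fell by 1.24 ± 0.06 at 120 h in 451Lu (adjusted p = 4.71e-11 and 3.28e-11). It shares 1785 exon bases with FBXO11 on the other strand. PMS2, the endonuclease subunit, was lower than on drug at 6, 24 and 48 h in A375, at -0.86, -0.56 and -0.42, and at -0.56 at 120 h in 451Lu. There are 10 pseudogenes named for PMS2, so its counts are uncertain.

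Other genes of these pathways were read from lists of the same kind. Of 23 other recombination genes, 13 fell and 5 rose at 6 h in A375 (median -0.42), and 16 fell and 2 rose at 120 h in 451Lu (median -1.002). For this and the lists that follow, 36.6% of all genes fell and 37.3% rose at 120 h in 451Lu. RMI2, the partner of RMI1, had the largest fall at 6 h, at -3.34, and WRN, a helicase gene, the largest rise, at 0.46. POLQ, which encodes the polymerase of an alternative end joining route, had the largest fall at 120 h, at -6.06, and RECQL, a helicase gene, the largest rise, at 1.30. Of 15 other Fanconi pathway genes, 6 fell and 5 rose at 6 h in A375 and 10 fell and 2 rose at 120 h in 451Lu (medians -0.13 and -0.41). The 6 h counts were near the shares of all genes, 38.1% lower and 35.1% higher. ERCC1, a subunit of a structure-specific nuclease, had the largest rise in both, at 2.21 and 1.83. FANCC (-1.13) fell most at 6 h in A375 and UHRF1 (-2.52) at 120 h in 451Lu. Among 20 other damage signalling genes, 10 fell and 6 rose, and then 11 fell and 2 rose, with CDC25C, a phosphatase of mitotic entry, lowest in both at -1.81 and -5.93.

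End joining is the repair route that needs no template. Of 12 of its genes tested, 5 fell and 4 rose at 6 h in A375, again near the shares of all genes, with changes from -1.253 for XRCC1 to 1.22 for LIG4, the ligase of that route. In 451Lu at 120 h, 9 fell and 2 rose, against 36.6% and 37.3% of all genes. The median there was -0.51, with a range from -2.13 for PARP1 to 0.84 for LIG4. Proliferation genes fell with most members at 6 h in A375 and at 120 h in 451Lu, but not all moved with them between the A375 times. At 6 h in A375, 15 of 22 replication and G1/S genes fell and 6 rose (median -0.29), and 19 of 20 G2 and mitosis genes fell with none higher (median -0.91). For these and the lists below, 38.1% of all genes fell and 35.1% rose at 6 h in A375. From 6 to 24 h in A375, 17 of the 20 G2 and mitosis genes rose, beside 25 of the 39 members. Of the 22 replication and G1/S genes, 10 rose and 9 fell then (median 0.11), against 35.5% and 34.2% of all genes. From 24 to 48 h, 17 of the 20 G2 and mitosis genes rose and 12 of the 22 replication genes fell, while 5 members were called. Of all genes, 14.2% rose and 15.7% fell then. At 120 h in 451Lu, 21 of 22 replication genes fell (median -2.64) and all 20 G2 and mitosis genes did (median -5.63). The summed level of the 20 G2 and mitosis genes went from 3518 and 3667 CPM in 451Lu on drug to 104 and 117 at 120 h, while that of the 39 members went from 2586 and 2699 to 984 and 1018. The part of the proliferation genes in the members' changes was not tested. Both at 6 h in A375 and at 120 h in 451Lu, 10 of 12 genes of ERK output rose and 1 fell. All 8 melanocyte markers fell at 6 h in A375 and 7 of 8 at 120 h in 451Lu.

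**Figure D4:**
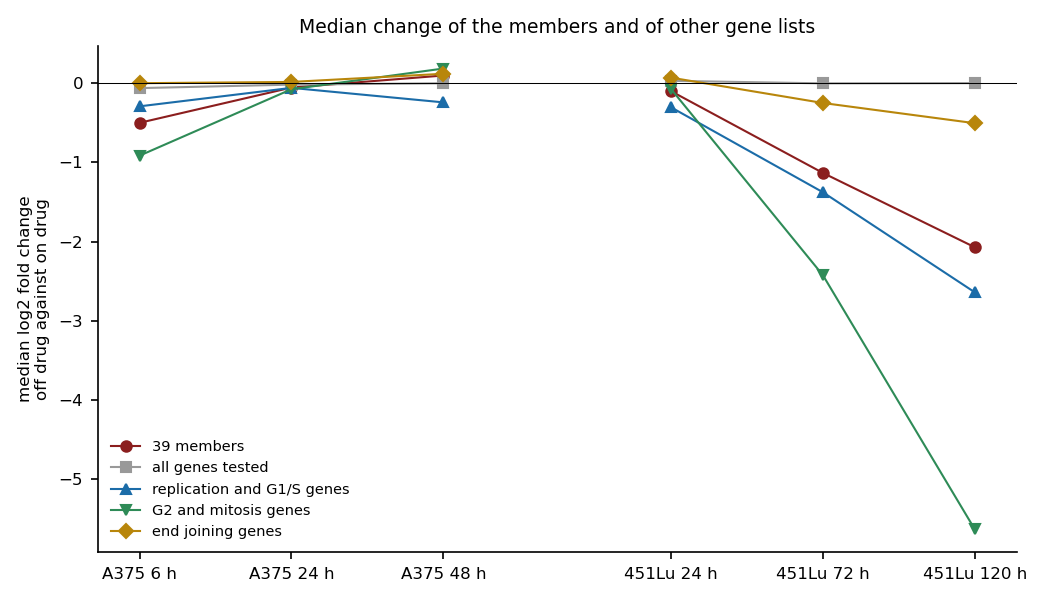
Median log2 fold change off drug against on drug of the 39 members, all genes tested, replication and G1/S genes, G2 and mitosis genes, and end joining genes (y axis) in 6 comparisons (x axis). At 120 h in 451Lu the members' median of -2.07 lies between those of end joining (-0.51) and of G2 and mitosis genes (-5.63).

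The lines were compared directly at 2 points. On drug, 24 members were lower and 11 higher in A375 than in 451Lu, against 39.3% and 37.9% of 15481 genes, with a median of -0.37. ATM was 4.32-fold lower in A375 (-2.11 ± 0.08), CLSPN 2.31-fold and RAD51AP1 2.17-fold. FANCB was 3.400-fold higher (1.77 ± 0.11) and RAD50 2.20-fold. Per kilobase of exon, USP1 was highest of the 39 in 451Lu on drug, at 42.4 CPM per kb, and FANCI in A375, at 33.4. The lowest were FANCB in 451Lu, at 1.75, and RAD54B in A375, at 1.57. At 120 h in 451Lu the range ran from FANCB at 0.115 to NBN at 20.4 CPM per kb.

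The change over the first 24 h, the time both lines share, differed between them for 21 of 39 members. It was higher in A375 for 16 and lower for 5, against 27.4% and 22.0% of all genes. The median difference over the members was 0.06. RAD54B differed most, at 1.03 ± 0.17 (adjusted p = 1.29e-05): it rose by 0.78 in A375 and stood at -0.18 in 451Lu. MSH6 differed by 0.84 ± 0.08 (adjusted p = 1.02e-09), with a rise of 0.41 in A375 and a change of -0.36 in 451Lu. FANCG, FANCE, CHEK2 and BLM followed, at 0.78, 0.75, 0.75 and 0.68. For CHEK2 the difference lay in 451Lu, where it fell by 1.70-fold while A375 was at -0.09. The FANCE difference was not called without A375 24 h replicate 1, at 0.44 (adjusted p = 0.0570). In the other direction RMI1, BRCA2, PMS2, BRIP1 and RAD50 differed by -0.45, -0.41, -0.33, -0.31 and -0.23. Members called lower in A375 numbered 0 to 6 when 1 library was left out, with 0 without A375 24 h replicate 1, and DESeq2 called none of the 5, with 0.0525 for BRCA2 the lowest of their adjusted p. For BRCA1 and FANCD2 the differences between the lines, 0.01 ± 0.11 and 0.06 ± 0.12, did not pass the threshold.

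**Figure D5:**
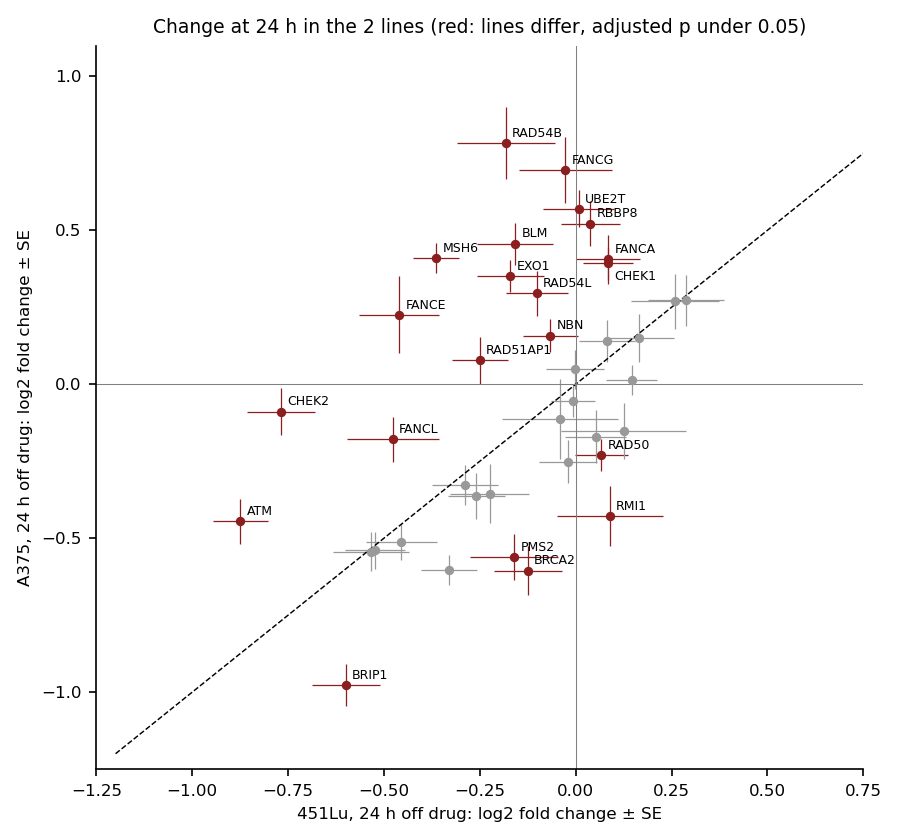
Log2 fold change ± SE at 24 h off drug against on drug in 451Lu (x axis) and A375 (y axis) for the 39 members. Points are from each line's own fit, with the line of equal change dashed. Red marks the 21 members that differ in the joint fit, whose scaling is slightly different, so the dashed line is not exactly the equality tested. RAD54B, at 0.78 in A375 and -0.18 in 451Lu, stands highest, and BRIP1, at -0.98 and -0.60, lowest.

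Libraries of a group were alike but not identical in the members. At 72 h in 451Lu, 31 of 39 members were lower in replicate 1 than in replicate 2, with a median log2 ratio of -0.17, against -0.005 over genes above 10 CPM. The counts of members lower in 451Lu at 72 h against on drug were 35 to 36 when any single library was left out, and 36 to 37 at 120 h.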

How the data were processed

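Per the submitters' processing notes, reads were aligned with TopHat2 2.1.0 and Bowtie 1.0.0 to GRCh38. The authors deposited raw read counts per Ensembl gene for 16 libraries. The counter, annotation release and strand setting are not given in these sources.

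Counts were tested with edgeR 4.0.16 in R 4.3.3 (TMM scaling, filterByExpr with minimum count 10 and minimum total 15, quasi-likelihood F test). Each line was fitted alone (8 libraries, 1 factor with 4 groups, 4 residual degrees of freedom; 14449 genes in A375 and 13851 in 451Lu). Comparisons of the lines used 1 fit of 16 libraries with 15481 genes and 8 residual degrees of freedom. Dispersion was moderated across genes, with a common biological coefficient of variation of 3.19% in A375, 4.98% in 451Lu and 4.15% jointly. P-values were Benjamini-Hochberg adjusted over all genes tested, with a threshold of 0.05. The SE is obtained from the fold change and F, as the size of the log2 value over the root of F. CPM used TMM over all 16 libraries, so ratios of printed levels can differ from fitted folds by up to 2.94% in A375 and 3.63% in 451Lu. The scripts were tested on simulated counts.

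The members and lists were chosen with earlier results of these data known. Every library is given for members among the 4 largest called changes of any off-drug against on-drug comparison and for BRCA1, BRCA2, FANCD2, FANCA, BLM, CHEK1, ATM, ATR, CLSPN and MSH6. From each list at most the largest called rise and fall of a comparison are named. A pair of genes is not reported here and was left out of these lists. Gene positions are those of the deposited table. All 39 gene IDs were found in GENCODE 29, which gave exon lengths and overlaps. Promoter windows are from RefSeq (GRCh38.p14). Alternatives were RLE size factors, DESeq2 1.42.0, no filter on low counts, a test against 1.5-fold, a replicate block, a joint fit of both lines and leaving out each library.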

Additional observations from a re-analysis of the deposited data

Results flagged for a closer look

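For 21 of the 39 members the 24 h change differed between the lines in the joint fit by edgeR's quasi-likelihood test, with adjusted p under 0.05. The values are log2 differences, A375 minus 451Lu. Those above 0 were 1.03 for RAD54B, 0.84 for MSH6, 0.78 for FANCG, 0.75 for FANCE, 0.75 for CHEK2, 0.68 for BLM, 0.63 for UBE2T, 0.59 for EXO1, 0.55 for RBBP8, 0.49 for ATM, 0.46 for RAD54L, 0.39 for RAD51AP1, 0.38 for FANCA, 0.37 for CHEK1, 0.36 for FANCL and 0.29 for NBN. Those below 0 were -0.23 for RAD50, -0.31 for BRIP1, -0.33 for PMS2, -0.41 for BRCA2 and -0.45 for RMI1. In each line's own fit ATM fell in both lines, by 0.45 in A375 and 0.87 in 451Lu, and so did BRIP1, by 0.98 and 0.60. The differences of RAD54B, MSH6, FANCG, CHEK2, BLM, UBE2T, EXO1, RBBP8, ATM, RAD54L and CHEK1 were called in every fit that left out 1 library and with DESeq2, RLE size factors, no filter and the replicate block. Those of FANCA, FANCE, FANCL, NBN, RAD50, BRIP1, PMS2, BRCA2 and RMI1 were lost when some library was left out, and that of RAD51AP1 with DESeq2.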

How the results depend on the processing

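No called change of a member changed sign under any alternative run. The balance of members higher and lower than on drug in A375 did turn: 13 and 15 at 24 h became 15 and 14 with RLE size factors and 14 and 13 without 24 h replicate 1, and 15 and 13 at 48 h became 10 and 11 without on-drug replicate 2 and 10 and 10 with DESeq2. Against a fold change of 1.5 in place of 1, the members called higher and lower were 0 and 12 at 6 h, 1 and 1 at 24 h, 2 and 2 at 48 h, 10 and 0 from 6 to 24 h and 0 and 0 from 24 to 48 h in A375. In 451Lu, 2 were lower at 24 h, 27 at 72 h and 33 at 120 h. From 24 to 72 h 25 were lower and from 72 to 120 h 18, and 0 were higher in any of the 5 comparisons. Between the lines 4 were higher and 11 lower on drug, and 2 and 0 in the 24 h change. Genes called in all under that test numbered 4566, 4257, 4525, 4081 and 215 in these A375 comparisons, 2373 at 24 h, 4387 at 72 h, 5688 at 120 h, 1768 from 24 to 72 h and 550 from 72 to 120 h in 451Lu, and 7054 and 2722 between the lines. By construction this test asks for larger changes.

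With DESeq2, 1 member was higher and 0 lower from 24 to 48 h in A375, 0 were higher at 24 h in 451Lu and 0 lower in the 24 h change between the lines, and genes called in all were 2223 from 24 to 48 h in A375 and 2982 from 72 to 120 h in 451Lu. Without the filter, 2 members were higher at 6 h and 2 from 24 to 48 h in A375, and 3 lower in the 24 h change between the lines. The joint fit called 2 higher from 24 to 48 h in A375. The cause was not tested. Leaving out each library in turn gave 2 to 4 members higher at 6 h and, from 24 to 48 h, 1 to 6 higher and 1 to 3 lower in A375. In 451Lu it gave 0 to 2 higher at 24 h, 1 to 2 higher from 24 to 72 h, 0 to 1 higher from 72 to 120 h with 2851 to 4052 genes called in all, and between the lines 0 to 6 lower in the 24 h change. The lowest of these totals came without 72 h replicate 2. With 1 library left in a group, that library is assumed to vary like the others.

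The labels do not say what a shared replicate letter marks. Correlations of same-numbered deviations ran from -0.23 to 0.06 over the pairs of A375 groups and from -0.07 to -0.01 between 451Lu on drug and its off-drug groups, but were 0.23, 0.37 and 0.29 among the off-drug groups of 451Lu, where 27, 31 and 26 of 39 members were lower in replicate 1 at 24, 72 and 120 h. These libraries may be paired there. With the replicate block 5041 instead of 4531 genes were called from 72 to 120 h in 451Lu, 3 members instead of 1 were higher at 24 h in 451Lu, and 2 single-member calls were lost and 5 gained over the 12 comparisons. RLE size factors lost 4 and gained 8 such calls, and other scalings moved the median of all genes by at most 0.051 on the log2 scale. Depth limits FANCB, EXO1 and FANCD2 most at 120 h in 451Lu, where they had 4 to 22 counts a library. RAD51AP1, RAD54L and BRIP1 were close to EXO1 and FANCD2, with 17 to 25 counts a library there.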
